A study of Mus musculus with 2 samples.

Results

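Mitogen-activated protein (MAP) kinase pathways are held back by inhibitors that the pathways themselves switch on. The 10 genes described here encode such inhibitors: 7 dual-specificity MAP kinase phosphatases (Dusp1, Dusp2, Dusp4, Dusp5, Dusp6, Dusp10 and Dusp16) and 3 Sprouty and Spred proteins (Spry1, Spry2 and Spred1). They were chosen by name, with earlier results of these data known, out of 54532 Ensembl gene identifiers in the count table. All 10 passed a minimum mean of 10 counts, as did 13041 genes in all. The phosphatases remove phosphate from the activated kinases ERK, JNK and p38, each with its own preference and its own place in the nucleus or cytoplasm. Sprouty and Spred proteins act further upstream, between receptors and the Ras and Raf proteins that feed ERK. In T cells the ERK pathway is started by the antigen receptor and by cytokines, and transcripts of several of these inhibitors are made within minutes to hours of a stimulus.

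The samples were wild-type mouse CD8+ T cells from the spleen, cultured for 8 h in RPMI 1640 without methionine or in complete RPMI 1640. Cells cannot make enough methionine for themselves, and they turn it into S-adenosylmethionine, the methyl donor of most methylation reactions. Each medium is represented by a single bulk RNA-seq library. Differences therefore cannot be set against replicates, and p-values are left out. The sources used here do not state the number or age of the animals, whether both cultures came from the same cells, or whether the T cells were stimulated. The labels name both a whole-RNA and an mRNA library kit without saying which was used for which library.

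The depth was 19647681 counts without methionine, with 18374 genes detected, and 14646527 counts in complete medium, with 19110 genes detected. A fold is the ratio of the scaled counts, methionine-free over complete. The exact 95% interval in parentheses after it holds the error of counting and leaves out any spread between cultures. CPM is counts per 1000000 scaled counts. The CD8 T cell marker list had all 9 genes detected, with a summed level of 2087 CPM without methionine and 2344 CPM in complete medium. Cd8a was at 527 and 664 CPM in the same order, and Cd8b1 at 358 and 398 CPM. Summed markers of B cells, of which all 8 had counts, stood at 131 CPM without methionine and 214 CPM in complete medium. Ighm alone held 120 and 196 CPM of these sums. For the 14 myeloid and dendritic cell markers the sums were 68.2 CPM, with 2 genes at 0, against 54.1 CPM, with 3 at 0. Cst3 alone held 58.5 and 49.0 CPM of these. For the 5 NK cell markers the sums were 142 CPM, with 2 genes at 0, against 169 CPM, with 1 at 0. The NK list includes Eomes and Klrk1, which CD8 T cells also express. The 3 CD4 T cell markers summed to 5.36 CPM and 4.29 CPM. Each of the 18 cell cycle genes was lower without methionine by 1.5-fold or more, with sums of 1137 CPM against 4643 CPM. What these differences contribute to the values below was not tested, and in bulk RNA fewer cells of a type cannot be told apart from less RNA per cell.

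Of the 10 genes, 5 were at least 1.5-fold higher in the methionine-free library, namely Dusp2, Dusp4, Dusp16, Spry1 and Spry2, and 0 were at least 1.5-fold lower. The counting interval of Spry2 held a ratio of 1, and those of the other 4 did not. Over all 13041 genes, 15.7% lay higher by that size and 18.0% lay lower. At 2-fold, 3 of the 10 were higher (Dusp2, Dusp4 and Spry1) and 0 lower, against 5.80% and 9.29% of all genes. The median log2 difference of the 10 genes was 0.69, and that of all genes 0.04, with quartiles of -0.39 and 0.40. The 10 genes, like the lists below, were chosen with earlier results of these data known. Their contrast with all genes is therefore a description only, and other members of the same families, given below, lay in both directions. Dusp1 and Dusp6 lay just under 1.5-fold, and Dusp5, Dusp10 and Spred1 lay close to equal. The reads of the 10 genes together numbered 11609 without methionine and 5681 in complete medium, a ratio of 1.53 (1.48 to 1.58).

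**Figure D1:**
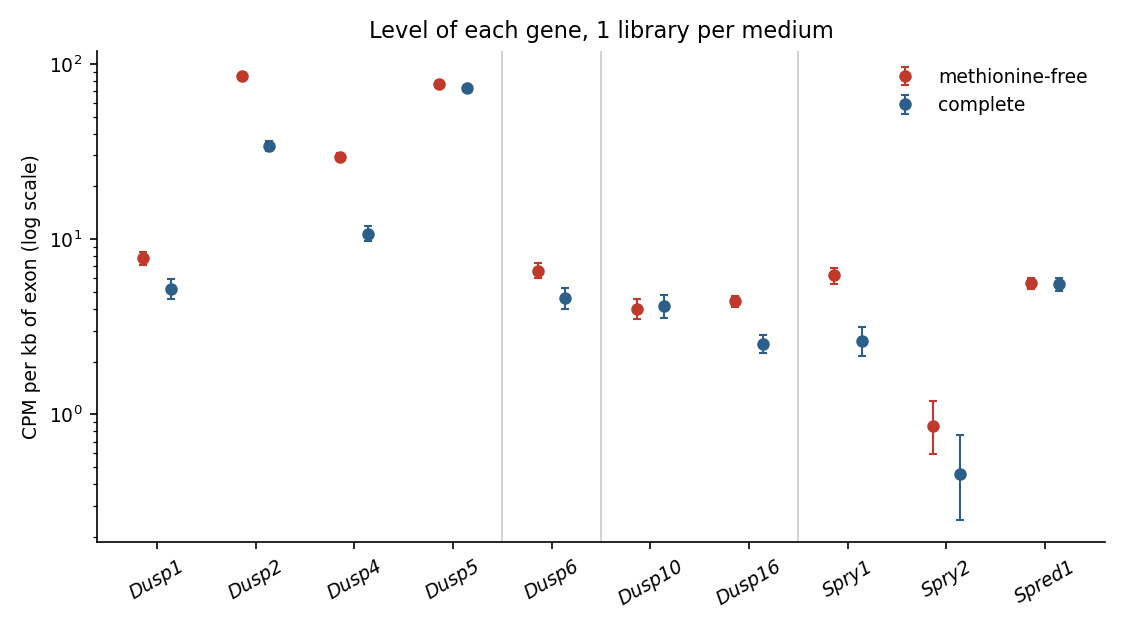
Level of each of the 10 genes, in CPM per kilobase of annotated exon on a log axis, in the methionine-free library (red, left) and the complete-medium library (blue, right). Bars are exact 95% Poisson counting intervals, and grey lines divide the nuclear phosphatases, Dusp6, the JNK and p38 phosphatases, and the Sprouty and Spred genes. Dusp2 stood at 85.6 and 33.9 CPM per kilobase and Dusp5 at 76.5 and 72.6.

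The 4 inducible nuclear phosphatases gave most of these reads, and their folds differed from one another. Dusp4, whose product acts on ERK and JNK in the nucleus, had 1588 counts without methionine and 433 in complete medium. That was 81.0 CPM against 29.5 CPM, a fold of 2.75 (2.47 to 3.06), the largest of the 10 genes. Of all genes, 2.37% had a higher log2 difference than Dusp4. Dusp2, a nuclear phosphatase first known from activated lymphocytes, had 3358 counts without methionine and 998 in complete medium. Its levels were 171 CPM and 68.0 CPM, a fold of 2.52 (2.35 to 2.71). The intervals of Dusp4 and Dusp2 overlapped, so their order is within counting error.

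Dusp1, the classic immediate early phosphatase of p38, JNK and ERK, had 504 counts without methionine and 253 in complete medium. The levels were 25.7 CPM and 17.2 CPM, with a fold of 1.49 (1.28 to 1.74) that fell just short of 1.5. Dusp5, a nuclear phosphatase that is specific for ERK, had 3707 counts without methionine and 2636 in complete medium. At 189 CPM and 179 CPM it differed 1.05-fold (1.002 to 1.11), with an interval that barely excludes 1. The interval leaves out error of the scaling. Under other scalings of the counts the log2 difference of Dusp5 ran from 0.05 to 0.09, so whether the interval excludes 1 depends on the scaling. The interval of Dusp5 lies wholly below those of Dusp1, Dusp2 and Dusp4. Summed over reads, the 4 nuclear phosphatases stood at a ratio of 1.59 (1.53 to 1.65).

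Dusp2 lies on chromosome 2 (127336159 to 127338376, plus strand; ENSMUSG00000027368), Dusp4 on chromosome 8 (34807297 to 34819894, plus strand; ENSMUSG00000031530), and Dusp5 on chromosome 19 (53529109 to 53542431, plus strand; ENSMUSG00000034765). Dusp1 lies on chromosome 17 (26505590 to 26562128, minus strand; ENSMUSG00000024190), in the GENCODE annotation of GRCm38. Exons of Dusp1 share 11 bases with Ergic1 on the opposite strand, which had 1633 counts without methionine and 1421 in complete medium. Exons of Dusp5 share 547 bases with an annotated antisense transcript that was not analysed here. The sources used here do not say whether reads were counted by strand.

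Promoter windows were read from RefSeq for 9 of the 10 genes (all but Dusp4), in build GRCm38.p6, each running from 250 bases before to 50 bases after the RefSeq start. They were searched on both strands for 6 motifs of factors that act downstream of MAP kinases or the amino acid response, and no matches of these 6 overlapped. The motifs were chosen after the differences of the 10 genes and a first scan of their windows, which also tried shorter forms, had been seen, so which windows hold a match is a description only. An NF-kB site was also searched; it matched in the window of Dusp5, where it overlapped a CArG box, and is not printed or counted here. The EGR site GCGNGGGCG was in the windows of Dusp2 and Dusp16, and in 5.55% of all 32851 windows. The cyclic AMP response element TGACGTCA was in that of Dusp1, and in 1.79% of all windows. The CArG box, which serum response factor binds, was present in 2 copies in the window of Dusp5, and in 1.63% of all windows. The AP-1 site TGANTCA (7.81% of all windows), the ETS site CCGGAAGT (3.89%) and the amino acid response element TGATGNAAN (3.95%) were in 0 of the 9 windows. The 4 windows with a match are printed because they set genes that were higher without methionine (Dusp2, Dusp16) beside one just under 1.5-fold (Dusp1) and one near equal (Dusp5). They run 5′ to 3′ along the strand of the gene, with the matched motifs in capitals; the match in Dusp16 is to the complementary strand. The windows are chr2:127335909-127336208 on the plus strand for Dusp2, chr6:134792579-134792878 on the minus strand for Dusp16, chr17:26508423-26508722 on the minus strand for Dusp1, and chr19:53528895-53529194 on the plus strand for Dusp5.
Dusp2: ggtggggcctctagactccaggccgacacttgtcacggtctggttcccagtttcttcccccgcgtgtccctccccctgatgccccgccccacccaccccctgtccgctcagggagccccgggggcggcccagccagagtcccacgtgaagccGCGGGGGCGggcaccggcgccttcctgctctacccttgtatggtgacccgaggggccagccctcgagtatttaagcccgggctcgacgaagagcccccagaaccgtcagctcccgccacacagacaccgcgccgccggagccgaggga
Dusp16: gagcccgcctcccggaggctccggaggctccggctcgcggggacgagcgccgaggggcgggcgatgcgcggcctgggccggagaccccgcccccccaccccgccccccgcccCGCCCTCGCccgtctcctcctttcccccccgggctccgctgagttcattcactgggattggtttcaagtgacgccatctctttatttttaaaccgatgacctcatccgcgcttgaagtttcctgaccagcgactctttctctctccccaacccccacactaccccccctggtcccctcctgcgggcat
Dusp1: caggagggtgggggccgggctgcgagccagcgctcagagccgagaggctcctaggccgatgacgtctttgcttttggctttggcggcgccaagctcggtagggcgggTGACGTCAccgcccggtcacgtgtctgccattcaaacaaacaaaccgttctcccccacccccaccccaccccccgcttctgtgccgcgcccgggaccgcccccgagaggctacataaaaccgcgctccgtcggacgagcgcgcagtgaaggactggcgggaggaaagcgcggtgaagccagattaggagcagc
Dusp5: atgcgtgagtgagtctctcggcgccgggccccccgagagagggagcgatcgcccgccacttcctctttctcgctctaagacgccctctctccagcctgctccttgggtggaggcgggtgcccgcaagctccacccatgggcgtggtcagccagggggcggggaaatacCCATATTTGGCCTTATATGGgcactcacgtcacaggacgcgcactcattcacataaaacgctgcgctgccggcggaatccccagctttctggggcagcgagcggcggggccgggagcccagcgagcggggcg

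Counted from the RefSeq start of each window, which for Dusp1 and Dusp5 lies inside the GENCODE interval given above and not at its edge, the EGR site of Dusp2 ran from base -98 to base -90, and that of Dusp16 from -138 to -130. The cyclic AMP response element of Dusp1 ran from -143 to -136. In Dusp5 the CArG boxes ran from -82 to -73 and from -72 to -63, next to each other. These matches describe the letters in the windows and are no measure of binding. The 9 windows were rich in G and C, with a median of 66.7% against 52.7% over all windows. Their CpG content was also high, with a median observed-to-expected ratio of 0.885 against 0.384. All windows were taken as background, neither limited to measured genes nor matched for G and C. The motif shares over all windows are therefore not a like comparison for the 9 windows.

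Dusp6 encodes the cytoplasmic phosphatase that is specific for ERK and whose transcript is widely used as a readout of ERK activity. It had 405 counts without methionine and 211 in complete medium, or 20.7 CPM and 14.4 CPM. The fold was 1.44 (1.22 to 1.71), above 1 beyond counting error but under 1.5. Dusp6 lies on chromosome 10 (99263231 to 99267489, plus strand; ENSMUSG00000019960).

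Dusp16 and Dusp10 encode phosphatases that prefer JNK and p38, and they differed from each other. Dusp16 had 675 counts without methionine and 288 in complete medium, or 34.4 CPM and 19.6 CPM, a fold of 1.76 (1.53 to 2.02). Dusp10 had 238 counts without methionine and 185 in complete medium, or 12.1 CPM and 12.6 CPM, a ratio of 0.964 (0.792 to 1.17). The interval of Dusp10 held 1 and lay below that of Dusp16. Dusp16 lies on chromosome 6 (134715468 to 134792625, minus strand; ENSMUSG00000030203) and Dusp10 on chromosome 1 (184013302 to 184075636, plus strand; ENSMUSG00000039384).

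Among the upstream inhibitors, Spry1 had 353 counts without methionine and 112 in complete medium. Its levels were 18.0 CPM and 7.63 CPM, a fold of 2.36 (1.90 to 2.95). Spry1 limits Ras and ERK signalling below receptors and is induced by them. Spry2, its close relative, had 35 counts without methionine and 14 in complete medium, or 1.79 CPM and 0.953 CPM. The fold of 1.87 (0.983 to 3.77) has an interval that holds 1, so a difference in Spry2 was not detectable at this depth although its size passed 1.5-fold. Spred1, which brings the Ras inactivator neurofibromin to the membrane, had 746 counts without methionine and 551 in complete medium. At 38.1 CPM and 37.5 CPM its ratio was 1.01 (0.908 to 1.13), below the interval of Spry1.

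Spry1 lies on chromosome 3 (37639947 to 37644598, plus strand; ENSMUSG00000037211), Spry2 on chromosome 14 (105891947 to 105896819, minus strand; ENSMUSG00000022114) and Spred1 on chromosome 2 (117121374 to 117182279, plus strand; ENSMUSG00000027351). Exons of Spry1 share 710 bases with Gm42922 on the opposite strand, which had 2 counts without methionine and 0 in complete medium.

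**Figure D2:**
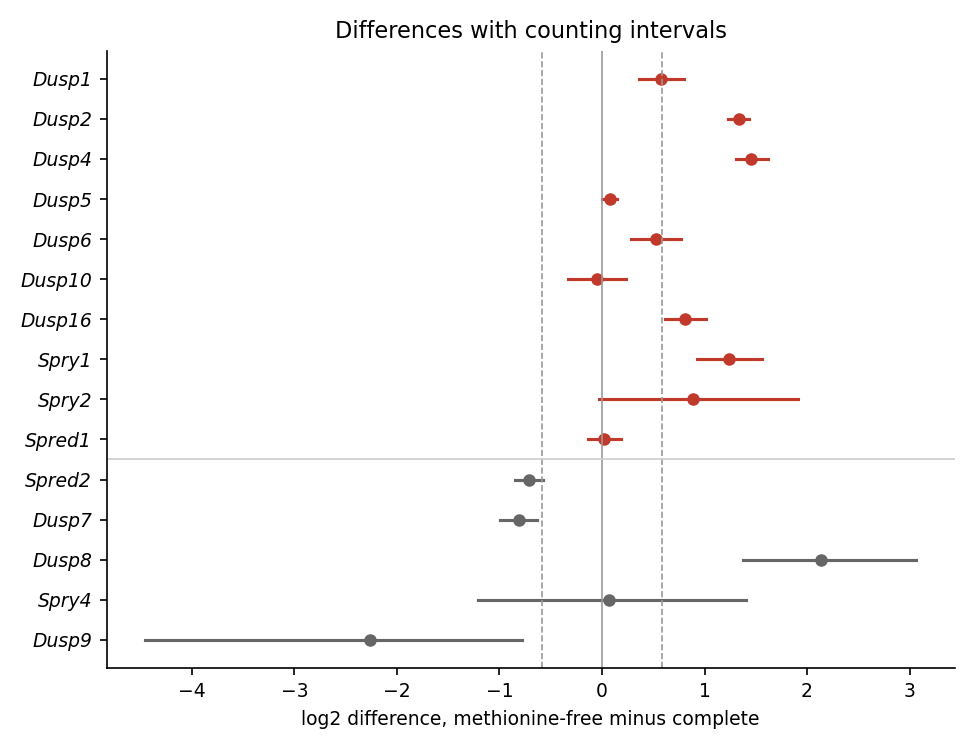
Log2 difference (methionine-free minus complete medium) of the 10 genes in red and of 5 further genes of the same families in grey, as points, with 95% counting intervals of the ratio as lines. Dashed lines mark 1.5-fold in either direction. Spred3, which had 0 counts in complete medium, is left out. Dusp4, Dusp2, Spry1 and Dusp16 have intervals wholly above a difference of 0, as do Dusp1 and Dusp6 with smaller values, while that of Spry2 crosses it.

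Per kilobase of exon, 3 nuclear phosphatases stood above the other genes in both libraries. Without methionine the order was Dusp2 at 85.6 CPM per kilobase, Dusp5 at 76.5 and Dusp4 at 29.6. Then came Dusp1 at 7.77, Dusp6 at 6.60, Spry1 at 6.20, Spred1 at 5.61, Dusp16 at 4.42, Dusp10 at 3.99 and Spry2 at 0.856 CPM per kilobase. In complete medium Dusp5 came first at 72.6 CPM per kilobase, followed by Dusp2 at 33.9 and Dusp4 at 10.8. The rest were Spred1 at 5.53, Dusp1 at 5.20, Dusp6 at 4.59, Dusp10 at 4.14, Spry1 at 2.62, Dusp16 at 2.51 and Spry2 at 0.457 CPM per kilobase. Per kilobase, Dusp2 and Dusp5 thus stood in opposite order at the top, with counting intervals that did not overlap in either library. Those intervals hold no error of the exon length. In CPM, without the length, Dusp5 stood above Dusp2 in both libraries, at 189 against 171 without methionine and 179 against 68.0 in complete medium. Lower down, Dusp1 and Dusp6, Dusp6 and Spry1, Spry1 and Spred1, and Dusp16 and Dusp10 had overlapping intervals without methionine. In complete medium the neighbours from Spred1 to Dusp10, and Spry1 and Dusp16, overlapped likewise. The length is the union of all annotated exons, so a gene with long unused exons is set too low.

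The make-up of the reads of the 10 genes also differed between the libraries, with Dusp5 holding the largest share in both. Dusp5 held 31.9% of them without methionine (95% Clopper-Pearson interval 31.1% to 32.8%) and 46.4% in complete medium (45.1% to 47.7%). Dusp2 held 28.9% (28.1% to 29.8%) without methionine and 17.6% (16.6% to 18.6%) in complete medium. Dusp4 held 13.7% (13.1% to 14.3%) and 7.62% (6.94% to 8.34%) in the same order. Spred1 held 6.43% (5.99% to 6.89%) without methionine and 9.70% (8.94% to 10.5%) in complete medium. Dusp5 and Spred1 thus made up less of the pool without methionine while their own levels were nearly equal.

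**Figure D3:**
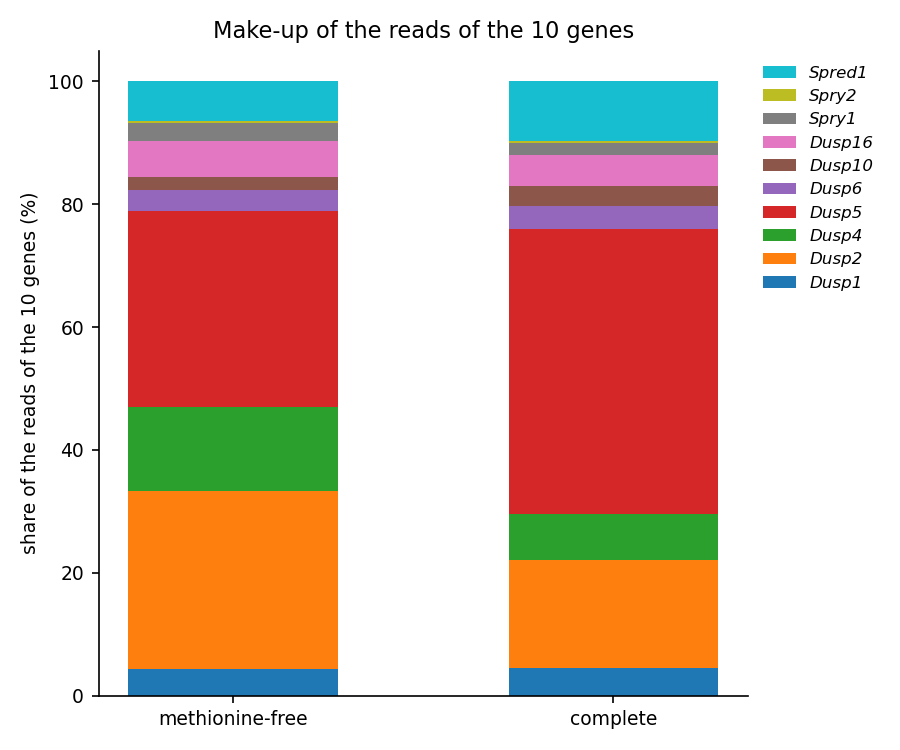
Share of each gene, in percent, in the reads of the 10 genes together, in the methionine-free library (left bar) and the complete-medium library (right bar). Dusp5 takes 31.9% and 46.4% of the reads, and Dusp2 28.9% and 17.6%.

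The remaining members of the same families lay in both directions. Of the 6 measured genes of Dusp7, Dusp8, Dusp9, Spry3, Spry4, Spred2 and Spred3, 2 lay higher by 1.5-fold or more and 3 lay lower. Spred3, among the higher, and Dusp9, among the lower, passed the count minimum only through the library in which they were high. The minimum thus favoured their being called. Over all genes, 15.7% lay higher and 18.0% lower by that size, shares against which this and the lists below are to be read. The median log2 difference of the 6 genes was -0.32. Dusp7, a cytoplasmic ERK phosphatase like Dusp6, had 425 counts without methionine and 560 in complete medium and was 1.76-fold lower (1.55 to 1.999). Spred2, a relative of Spred1, had 747 and 917 counts in the same order and was 1.64-fold lower (1.49 to 1.81). So Dusp6 and Spred1 lay at or above equal where these relatives lay below it, and the intervals within each pair did not overlap.

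Dusp8, a JNK and p38 phosphatase, had 90 counts without methionine and 15 in complete medium, a fold of 4.50 (2.59 to 8.37) on few reads. Dusp9, another ERK phosphatase, had 4 and 16 counts in the same order, and was 5.34-fold lower (1.72 to 21.9). Spred3 had 22 counts without methionine and 0 in complete medium, 5.50-fold above a floor of 3 counts in the library. Its counting interval has no upper limit and a lower limit of 4.11-fold, so the ratio to the floor is not a bound. Placed at the ratio to the floor, Spred3 leaves the median of the list at -0.32. Exons of Spred3 share 202 bases with Ggn on the opposite strand, which had 3 and 8 counts. Spry4 had 14 and 10 counts, a ratio of 1.05 (0.433 to 2.64), and Spry3 had 0 and 1. These 5 genes rest on far fewer reads than the main phosphatases.

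**Figure D4:**
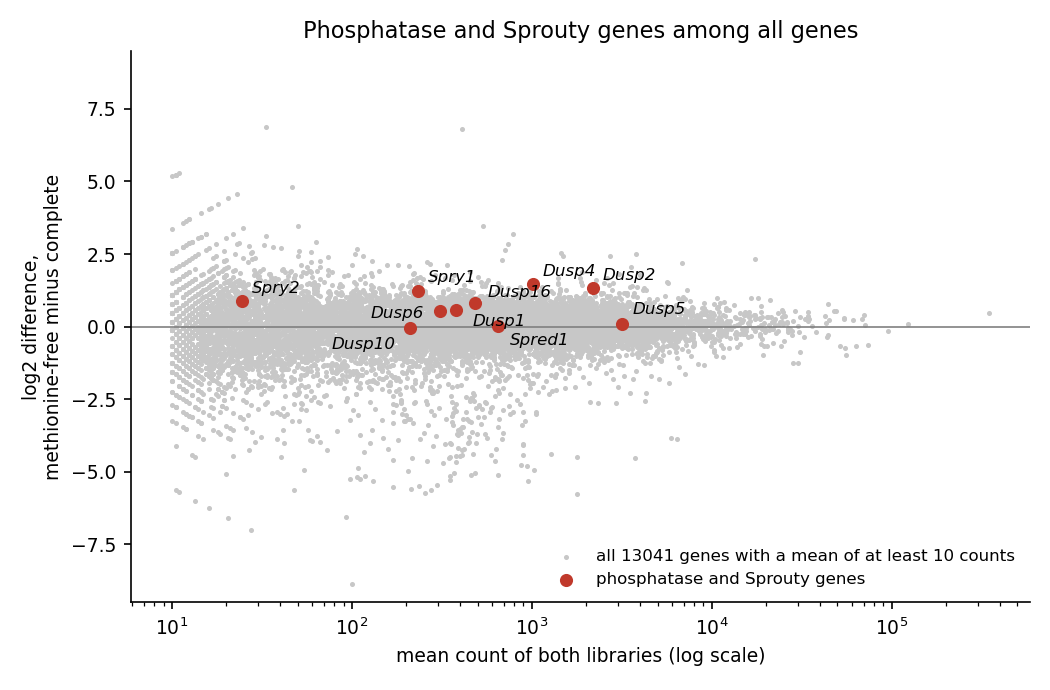
Log2 difference (methionine-free minus complete medium) against the mean count of both libraries on a log axis, for the 13041 genes past the minimum of 10 counts (grey) and the 10 phosphatase and Sprouty genes (red). Dusp4 at 1.46, Dusp2 at 1.33 and Spry1 at 1.24 lie among the higher values, and Dusp10 at -0.05 lies in the middle.

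The atypical dual-specificity phosphatases, small enzymes without the domain that binds MAP kinases, mostly lay within 1.5-fold. Of 9 measured genes, 2 lay above 1.5-fold, 1 below it in the other direction and 6 between. The median was 0.26, and of all genes 15.7% lay higher and 18.0% lower by that size. Dusp22, known in T cells as an inhibitor of the kinase Lck, had 334 counts without methionine and 545 in complete medium and was 2.18-fold lower (1.90 to 2.50). Styx, a pseudophosphatase without catalytic activity, had 804 and 378 counts in the same order, a fold of 1.59 (1.41 to 1.81). Its exons share 3878 bases with Gnpnat1 on the opposite strand, which had 21 and 26 counts. Dusp14 had 62 and 30 counts, with a fold of 1.55 (0.986 to 2.48) whose interval holds 1.

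The kinases that these proteins act on mostly lay within 1.5-fold. Of 8 measured MAP kinase genes, 1 lay lower by at least 1.5-fold and 0 lay higher, against 18.0% and 15.7% of all genes. The median was -0.20. The exception, Mapk3, which encodes ERK1, had 538 counts without methionine and 690 in complete medium and was 1.71-fold lower (1.53 to 1.92). Per kilobase, Mapk3 stood at 12.2 CPM without methionine and 20.8 CPM in complete medium. The JNK genes Mapk8 and Mapk9 had ratios of 1.002 (0.897 to 1.12) and 0.789 (0.722 to 0.863), and the p38 genes Mapk14 and Mapk11 had ratios of 0.936 (0.876 to 0.999) and 0.766 (0.636 to 0.921).

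Upstream of ERK, 0 of 19 measured genes of the Ras to ERK cascade, a list that also holds Mapk3, lay higher by that size, and 4 lay lower: Rasgrp2, Rasgrp4, Mapk3 and the Ras gene Hras. Of all genes, 15.7% lay higher and 18.0% lower by that size. The median of the list was 0.11. The lowest was Rasgrp2, an exchange factor that acts mainly on the Ras relative Rap1, with 171 counts without methionine and 742 in complete medium, 5.79-fold lower (4.90 to 6.88). Rasgrp4 followed with 9 and 22 counts, 3.26-fold lower (1.44 to 8.05), and shares exon bases with Fam98c on the opposite strand. Of the 12 measured kinases upstream of JNK and p38, 2 lay lower by 1.5-fold and 0 higher; the median was -0.11. They were Map2k6, which activates p38, at 21 and 34 counts, 2.16-fold lower (1.22 to 3.92), and Map3k4, at 707 and 804 counts, 1.52-fold lower (1.37 to 1.68). Map3k5 came next with 399 and 430 counts, 1.44-fold lower (1.25 to 1.65). In both lists the part that lay lower was close to the 18.0% of all genes.

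Other negative regulators of Ras and ERK, a list that also holds Spry4 and Spred2, were centred near equal. Among 19 measured genes, 2 passed 1.5-fold upwards and 4 downwards (Dgka, Rasa3, Rasal2 and Spred2), against 15.7% and 18.0% of all genes. The median was -0.01. The higher pair were Nf1, which encodes neurofibromin, the Ras inactivator that Spred proteins recruit, and Dok1, an adapter that binds a Ras GTPase-activating protein. Nf1 had 617 counts without methionine and 219 in complete medium, a fold of 2.11 (1.81 to 2.48). Dok1 had 818 and 314 counts in the same order, a fold of 1.95 (1.71 to 2.23). Dgka, which removes the diacylglycerol that activates Ras exchange factors in T cells, had 2030 and 2567 counts and was 1.69-fold lower (1.59 to 1.79). Rasal2 had 24 and 28 counts and was 1.56-fold lower (0.870 to 2.81), with an interval that holds 1.

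Among transcripts known to follow ERK activity, 8 of 17 measured genes lay higher by 1.5-fold or more, 3 lay lower (Ier3, Etv4 and Ccnd1) and 6 between. Over all genes, 15.7% lay higher and 18.0% lower by that size. The median of the 17 genes was 0.57. The 8 were Egr1, Egr2, Egr3, Ier2, Myc, Nr4a1, Phlda1 and Epha2, named after their values were seen. Egr1, whose product binds the EGR site, had 3724 counts without methionine and 1238 in complete medium, a fold of 2.25 (2.11 to 2.41). The largest differences were in genes of low count. Epha2 had 25 and 5 counts, a fold of 3.75 (1.41 to 12.5), and Etv4, an ETS factor, had 12 and 26, 2.89-fold lower (1.41 to 6.29). Ier3 had 205 counts without methionine and 384 in complete medium and was 2.50-fold lower (2.10 to 2.98), against the direction of the 8. Ccnd1 had 9 and 12 counts in the same order and was 1.78-fold lower (0.688 to 4.78), with an interval that holds 1.

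Of 13 measured ETS and SRF transcription factors, through which ERK reaches its target genes, 2 passed 1.5-fold upwards and 0 downwards. Of all genes, 15.7% and 18.0% did, and the median of the list was 0.18. Ets2 had 2975 counts without methionine and 767 in complete medium, a fold of 2.91 (2.68 to 3.15), above that of every one of the 10 phosphatase and Sprouty genes by value, with an interval that overlaps that of Dusp4. Elk1, a partner of serum response factor, had 371 and 165 counts, a fold of 1.69 (1.40 to 2.04), and its exons share 76 bases with Uxt on the same strand. Ets1, the most abundant of them in reads, had 8931 and 8951 counts and was 1.34-fold lower (1.30 to 1.38).

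**Figure D5:**
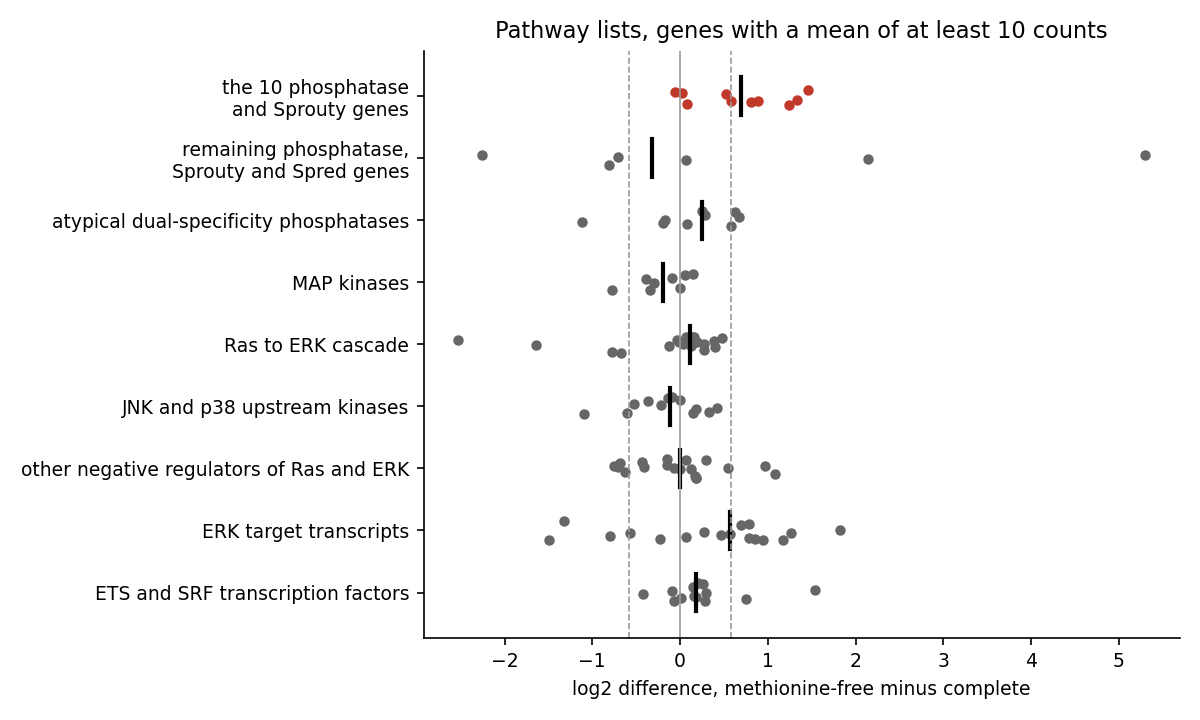
Log2 difference (methionine-free minus complete medium) of each measured gene in the 10 phosphatase and Sprouty genes (red) and in 8 lists of related genes (grey). Black bars are medians and dashed lines mark 1.5-fold in either direction. Spred3, with 0 counts in complete medium, is drawn at 5.30, a value set by the prior count. The medians run from -0.32 for the remaining family members to 0.69 for the 10 genes, with the ERK target transcripts at 0.57.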

How the data were processed

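Raw read counts per gene were deposited by the authors, as whole numbers with no scaling, for 54532 Ensembl identifiers. The submitters' processing notes name the build mm10; the sources used here do not state the aligner, the counter, the annotation release or the strand setting. Columns were matched to the 2 samples by titles and descriptions, and 0 other columns of samples were left unused. Symbols, coordinates (1-based) and exon lengths came from GENCODE M21 on GRCm38, the assembly of mm10; 37 identifiers found no match. Counts were scaled with TMM in edgeR 4.0.16 (R 4.3.3). Log2 differences used a prior count of 0.5, and genes with a mean under 10 counts were left out of lists. A gene under 10 counts in either library could pass only through the other, as did Dusp9, Spred3, Rasgrp4, Epha2 and Ccnd1. Calls at 1.5-fold and 2-fold rest on the log2 difference and on size alone. Folds carry no prior count and have exact conditional binomial intervals at 95%, from scipy 1.17.1; a count of 0 was set against a floor of 3 counts, 0.153 CPM without methionine and 0.204 CPM in complete medium. The intervals hold the error of counting reads only. No molecular identifiers are named, so repeat reads of the same molecule could not be told apart and may make the intervals too narrow. The steps were tested on simulated counts.

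The 10 genes and the lists were chosen with earlier results of these data known. The text names all 10, the rest of their families, the kinases Mapk3, Mapk8, Mapk9 and Mapk14, and the 3 genes of each list with the largest absolute log2 difference; Egr1 and the ERK targets listed with it, and Hras, Rasa3, Rasal2 and Ccnd1, were named after their values were seen. A kinase gene that this choice also takes in is not reported here. Alternatives were DESeq2 size factors (DESeq2 1.42.0), total counts, upper quartile scaling, no count minimum, a minimum mean of 100 counts and a prior count of 2.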

Additional observations from a re-analysis of the deposited data

How the results depend on the processing

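Dusp2, Dusp4, Dusp16 and Spry1 were at least 1.5-fold higher under every alternative tried. The number of the 10 genes at least 1.5-fold higher ran from 4 to 6: Dusp1 joined under upper quartile scaling, and Spry2 dropped out where a mean of at least 100 counts was asked for. The number at least 1.5-fold lower was 0 throughout, and the median of the 10 genes ran from 0.58 to 0.71. Dusp5 ran from 0.05 to 0.09, Dusp10 from -0.08 to -0.04 and Spred1 from -0.01 to 0.03, so Spred1 has no stable direction. TMM over protein-coding genes, added after the data were seen because the labels name more than one library kit, left the same 5 genes at least 1.5-fold higher. With no count minimum, 4898 of 21114 genes passed 1.5-fold upwards and 6312 downwards. Under a minimum mean of 100 counts, 1163 and 1300 of 9522 genes did. Both the number tested and the share passing changed. The shares were larger with no minimum, and smaller with the stricter one, than in the main setting. No paired analysis was possible because there is 1 library per medium, and for the same reason no library could be left out. Depth limits Spry2, Dusp9, Spry4 and Spred3, and the spread between cultures is unknown for every gene.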

Other observations

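The 3′ untranslated regions of the 10 genes were searched for the heptamer TATTTAT, the core of AU-rich elements that mark many short-lived transcripts, in the longest annotated such region of each gene. It was present in 5 of the 10 genes, and in 30.2% of 11064 measured protein-coding genes. Dusp1 and Spred1 held 3 copies each, a number matched or passed by 3.98% of measured genes. Spry1 and Spry2 held 2 copies each, which 10.6% of measured genes matched or passed, and Dusp2 held 1. Dusp4, Dusp5, Dusp6, Dusp10 and Dusp16 held 0. Genes with and without the heptamer were found on both sides of 1.5-fold: Dusp4 (log2 difference 1.46) held 0 copies and Spred1 (0.02) held 3. The median length of the region was 1110 bases in the 10 genes and 1162 bases in measured genes.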
